A study of Saccharomyces cerevisiae with 8 samples.

Results

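The 52 genes described here encode the proteins that start and copy the nuclear genome of budding yeast, Saccharomyces cerevisiae, and the ribonucleotide reductase that supplies DNA building blocks. They were listed by function as genes of 1 pathway, though with earlier results of these data known, and fall into 8 functional groups. Each gene is represented by the probe set annotated to it alone. POL2 has 9 such probe sets, and the set with the highest mean over the 8 arrays was taken. The 52 genes are part of 5656 genes with a probe set of their own, and 50 of them were bright enough to be tested.

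Transcripts were measured on 1 Affymetrix YG_S98 array per sample, in 4 groups of 2 samples. A hem1 deletion strain, which cannot make 5-aminolevulinic acid (ALA), the first intermediate of heme synthesis, was first kept for 6 h in YPD, a rich medium, with 250 µM ALA. After washing, duplicate 15 ml YPD cultures were started without ALA, labelled heme deplete, or with 250 µM ALA, labelled heme replete, and kept for 16 h. A wild type strain, spelled BY45742 in the labels, was grown for 6 h in YPD and then for 12 h in 15 ml of the same medium, either in hypoxia, inside an anaerobic chamber, or in normoxia. The hem1 groups carry the deletion in common, the wild type groups carry none, and the labels name no ALA for the wild type samples. Nothing in the labels says that the paired wild type samples came from separate cultures, so p-values measure the spread between samples, which may be technical.

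DNA replication starts at origins marked by the origin recognition complex. In G1, Cdc6 and Cdt1 help this complex to load the ring-shaped MCM helicase, a step called licensing. Origins fire in S phase, when the Cdc7-Dbf4 kinase and the Sld2, Sld3 and Dpb11 proteins allow Cdc45 and the GINS complex to join the helicase. Polymerase alpha with primase then begins each strand, and polymerases epsilon and delta extend it. The sliding clamp PCNA, encoded by POL30, holds the polymerases on DNA after being opened by the clamp loader RFC, while RPA coats exposed single strands. Ribonucleotide reductase makes deoxyribonucleotides from ribonucleotides with a radical whose formation needs iron and oxygen. Its large subunit is Rnr1, with Rnr3 as a damage-inducible alternative, and its small subunits are Rnr2 and Rnr4. Several of these genes, RNR1 and POL30 among them, are known in yeast to be transcribed mainly near the G1 to S transition, while others vary little over the cell cycle.

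The values are MAS5 signals on a linear scale, brought by the authors' scaling to a trimmed mean of 500.42 to 500.58 on every array. Median signals nevertheless ran from 98.1 to 158.8, so the choice of scaling moves the balance of higher and lower genes, and counts are also given after centring each array on its median and after quantile normalization. The ratio of 3′ to 5′ signal of actin, a sign of RNA quality, was 1.77 to 1.81 without ALA, 1.57 to 1.86 with ALA, 2.11 to 2.18 in hypoxia and 1.40 to 1.49 in normoxia, and its part in the results was not tested. High signal from 18S ribosomal RNA controls marked 1 array without ALA and 1 in hypoxia, here named the high 18S arrays, and the fits were repeated without them. The HEM1 probe set read 459.7 to 849 on the 4 arrays labelled hem1 and 683 to 1613 on the 4 wild type arrays. Its place relative to the deleted segment is unknown, and it is no check of the strain.

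A gene was called changed when limma, fitted to log2 signals of all 7081 probe sets tested, gave a Benjamini-Hochberg adjusted p of at most 0.05. Differences are log2 of the first-named group over its comparator, n = 2 arrays for every group, and arrays 1 and 2 of a group are numbered only to name them. The 30th percentile of each array (26.6 to 48.7 signal units) served as a lower limit: groups with neither array above it are termed dim. Folds against them, or against groups with 1 array under it, are bounds, written "at least".

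**Figure D1:**
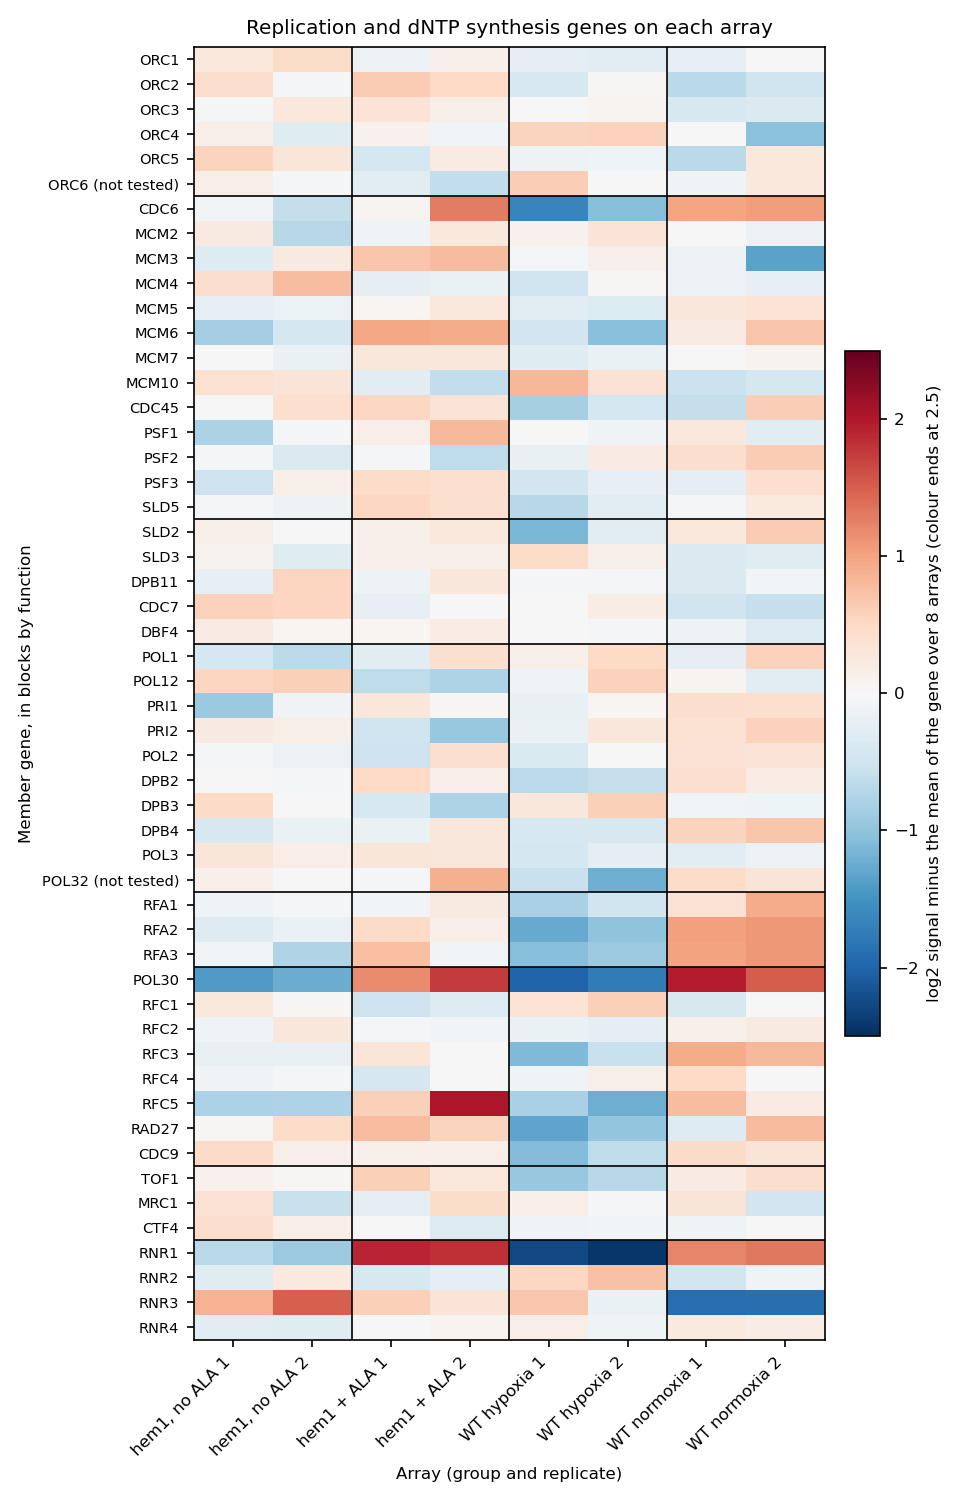
Heat map of the 52 member genes (rows, in 8 functional blocks from the origin recognition complex at the top to ribonucleotide reductase at the bottom) on the 8 arrays (columns). Colour is the log2 signal minus that gene's mean over the arrays. RNR1 and POL30 are blue on all 4 treated arrays and red on all 4 control arrays.

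The first comparison asks how withdrawal of ALA from the hem1 strain relates to replication transcripts. As reported, 5 members fell, namely RNR1, POL30, RFC5, MCM6 and RFA2, and the first 3 of these fell more than 4-fold. In the same cultures 7 members rose by 1.48-fold to 2.41-fold, led by the polymerase alpha subunit gene POL12. The other 38 of the 50 tested members were not called. Among all 5283 genes tested, 31.2% were called higher and 19.0% lower. As reported, 12 of 50 members were called, a smaller share than the 50.2% of all genes called in either direction. With median centring and quantile normalization 25 and 23 members were called, so the size of this gap depended on the scaling. The median log2 difference was -0.21 over the members and 0.16 over all genes. A smaller fraction of cells in S phase and less transcript per cell cannot be told apart in these bulk cultures.

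Scaling changed the number and balance of these calls but not the genes with wide falls. With median centring 1 member was higher and 24 were lower (19.8% and 33.9% of all genes), and with quantile normalization 1 and 22 (23.5% and 26.7%). The 1 higher member in both was POL12. The members' median minus that of all genes was -0.37 as reported and -0.44 with quantile normalization. Median centring shifts every gene of an array alike, so it cannot change this gap.

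Ribonucleotide reductase was split by withdrawal of ALA. RNR1, the main large subunit gene, had signals of 314 and 269 without ALA, against 1865 and 1785 with ALA. The groups lay far apart, with means of 291 ± 32.1 without ALA and 1825 ± 57.2 with ALA (SD, n = 2 each), a 6.28-fold fall (log2 difference -2.65, SE 0.16, adjusted p = 9.18e-06). Its alternative, RNR3, read 190.0 and 291 without ALA and 157 and 129 with ALA. Both of its arrays without ALA lay above those with ALA, yet the difference was not called (log2 difference 0.72, SE 0.32, adjusted p = 0.0884), and of 16 alternative settings it passed only when the 2 arrays with high 18S signal were left out (adjusted p = 0.0327). The probe set for RNR3 is of the kind that Affymetrix marks as able to match several transcripts, although it is annotated to RNR3 alone.

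The small subunit genes held closer to their control levels. RNR2 gave 2214 and 3215 without ALA, against 2056 and 2322 with ALA, and the arrays of the groups overlapped (log2 difference 0.29, SE 0.21, adjusted p = 0.289). RNR4 gave 4585 and 4540.0 without ALA, against 5631 and 5822 with ALA. Its arrays did not overlap, but the difference was not called (log2 difference -0.33, SE 0.14, adjusted p = 0.0756) except with median centring, where it was lower (adjusted p = 0.00511).

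**Figure D2:**
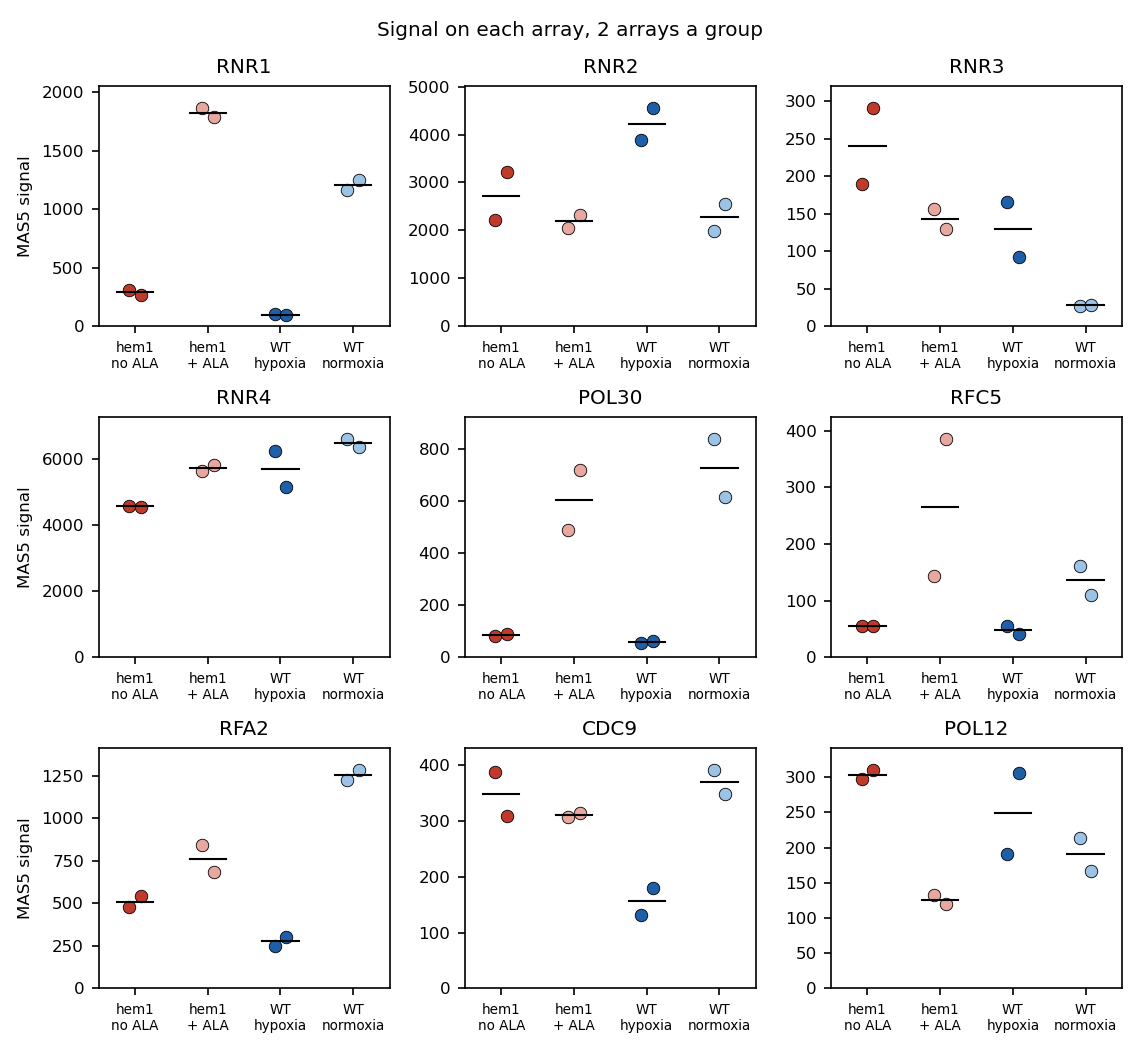
MAS5 signal (vertical axes, linear, from 0) of 9 member genes on each array in the 4 groups. Points are single arrays and short lines are group means. RNR1 and POL30 are low in both treated groups, RNR3 is lowest in normoxia, and CDC9 is lowest in hypoxia.

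Among the genes of the sliding clamp, its loader and fragment joining, 2 of 8 fell and 1 rose. POL30, which encodes the clamp PCNA, had 80.2 and 90.8 without ALA, against 487 and 717 with ALA. No array overlapped, and the fall was 6.93-fold (log2 difference -2.79, SE 0.24, adjusted p = 6.62e-05). RFC5, a clamp loader subunit gene, read 55.4 and 55.9 without ALA and 144 and 386 with ALA. The arrays without ALA were nearly equal and below both control arrays, which themselves differed widely, and RFC5 fell 4.24-fold (log2 difference -2.08, SE 0.43, adjusted p = 0.00433). POL30 and RFC5 are neighbours in the genome, transcribed towards each other. The only other adjacent members, POL2 and ORC5, lie on 1 strand.

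RFC1, the large subunit of the loader, read 319 and 272 without ALA and 187 and 211 with ALA, with no overlap. It rose 1.48-fold (log2 difference 0.57, SE 0.20, adjusted p = 0.0461), the call nearest the threshold, and it lost that call under 12 of 16 alternative settings. The remaining clamp and joining genes, RFC2, RFC3, RFC4, the flap endonuclease gene RAD27 and the DNA ligase gene CDC9, had differences of -0.43 to 0.16 and were not called, although RFC3 was lower with both other scalings (adjusted p = 0.021 with median centring).

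RPA, the single-strand binding complex, has 3 subunits, and 1 of their genes fell. RFA2 gave 479.9 and 539.6 without ALA, against 844 and 680.4 with ALA. The groups did not overlap and RFA2 fell 1.49-fold (log2 difference -0.57, SE 0.18, adjusted p = 0.0263), but the call was lost without array 1 with ALA (adjusted p = 0.157) or without array 1 of the cultures lacking ALA (0.112), which is a high 18S array. RFA3 read 763 and 474 without ALA and 1333 and 761 with ALA, and 1 array of each group overlapped (log2 difference -0.74, SE 0.30, adjusted p = 0.0663). RFA1, the large subunit gene, read 309 and 320.3 without ALA and 318 and 391 with ALA, again overlapping (log2 difference -0.16, SE 0.23, adjusted p = 0.572). With median centring both RFA1 and RFA3 were called lower (0.0405 and 0.0143).

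Of the 9 polymerase and primase genes tested, 3 rose and none fell as reported, whereas with median centring and quantile normalization POL12 alone rose and POL1, PRI1, DPB2 and DPB4 were called lower. POL12, the regulatory subunit of polymerase alpha, had 297 and 310.3 without ALA, against 132 and 120.3 with ALA. Its groups were well separated and the rise was 2.41-fold (log2 difference 1.27, SE 0.25, adjusted p = 0.00345). PRI2, the large primase subunit gene, had 320.1 and 306 without ALA, against 196 and 142 with ALA, without overlap, and rose 1.87-fold (log2 difference 0.91, SE 0.22, adjusted p = 0.0102). DPB3, a small subunit of polymerase epsilon, had 553 and 396 without ALA, against 301 and 233 with ALA, and rose 1.77-fold (log2 difference 0.82, SE 0.22, adjusted p = 0.0153).

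The POL12 call held in all 16 alternative settings, and those of PRI2 and DPB3 did not. PRI2 lost its call without array 2 with ALA (adjusted p = 0.071), and DPB3 lost it without that array (0.0994) or without array 1 of the cultures lacking ALA (0.0916). The catalytic subunit genes POL1, POL2 and POL3 of polymerases alpha, epsilon and delta had differences of -0.61, -0.03 and -0.06 and were not called. POL32, a polymerase delta subunit gene, lay at or below the 30th percentile on all 8 arrays (6.64 to 28.4) and was not tested.

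In the licensing and helicase group 2 of 13 genes rose and 1 fell. MCM6, a helicase subunit gene, had 23.6 and 31.4 without ALA, against 82.7 and 81.2 with ALA. It was dim without ALA and bright on both control arrays, so it fell at least 1.72-fold (log2 difference -1.59, SE 0.32, adjusted p = 0.00402). MCM4, another of the 6 helicase subunit genes, moved the other way, with 308 and 388 without ALA, against 195 and 201 with ALA. Its groups did not overlap and it rose 1.74-fold (log2 difference 0.80, SE 0.22, adjusted p = 0.0146).

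The remaining helicase subunit genes, MCM2, MCM3, MCM5 and MCM7, ranged from -0.80 to -0.31 and were not called as reported. With both other scalings MCM3, MCM5 and MCM7 were called lower (adjusted p = 0.0282, 0.00623 and 0.00431 with median centring). MCM10, which encodes a factor that helps to activate the loaded helicase, read 59.6 and 56.8 without ALA and 37.4 and 29.6 with ALA. It rose at least 1.60-fold (log2 difference 0.81, SE 0.28, adjusted p = 0.0396). The MCM4 and MCM10 calls were lost with both other scalings (MCM4 adjusted p = 0.131 and 0.106, MCM10 0.255 and 0.24) and without single hem1 arrays, 3 of 4 for MCM4 and any of 4 for MCM10. CDC6, the licensing factor gene, was dim without ALA at 35.8 and 25.0, against 39.2 and 91.2 with ALA, and was not called as reported (log2 difference -1.0, SE 0.44, adjusted p = 0.0877), but was lower with both other scalings (0.0227 and 0.0293).

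The GINS genes PSF1, PSF2, PSF3 and SLD5 and the CDC45 gene lay between -0.92 and 0.15 and were not called as reported. With both other scalings PSF1, PSF3 and SLD5 were called lower, with median centring at adjusted p = 0.013, 0.0113 and 0.00358.

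Origin firing genes changed in 1 case of 5. CDC7, which encodes the kinase that triggers firing, had 254 and 249.8 without ALA, against 148 and 169.8 with ALA. The groups were separate and CDC7 rose 1.59-fold (log2 difference 0.67, SE 0.17, adjusted p = 0.0126), a call lost without array 1 with ALA (adjusted p = 0.073) and after median centring (0.204). Its activator gene DBF4 (0.01) and SLD2, SLD3 and DPB11 (-0.13, -0.25 and 0.10) were not called as reported, and SLD3 was lower with both other scalings (adjusted p = 0.0288 with median centring). Of the 5 origin recognition complex genes tested, whose differences were -0.35 to 0.55, limma called 0, and 0 had an unadjusted p under 0.05. With both other scalings ORC2 and ORC3 were called lower, and ORC6 was at or below the 30th percentile on all arrays (16.8 to 39.6) and was not tested.

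The fork protection genes TOF1, MRC1 and CTF4, whose products steady and link the moving fork, were not called as reported, and TOF1 was lower with both other scalings (adjusted p = 0.0112 with median centring). CTF4 read 312 and 258 without ALA and 231 and 181 with ALA, with no overlap (log2 difference 0.47, SE 0.19, adjusted p = 0.0679). MRC1 was above the 30th percentile on only 2 of 8 arrays, and its difference was -0.21.

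**Figure D3:**
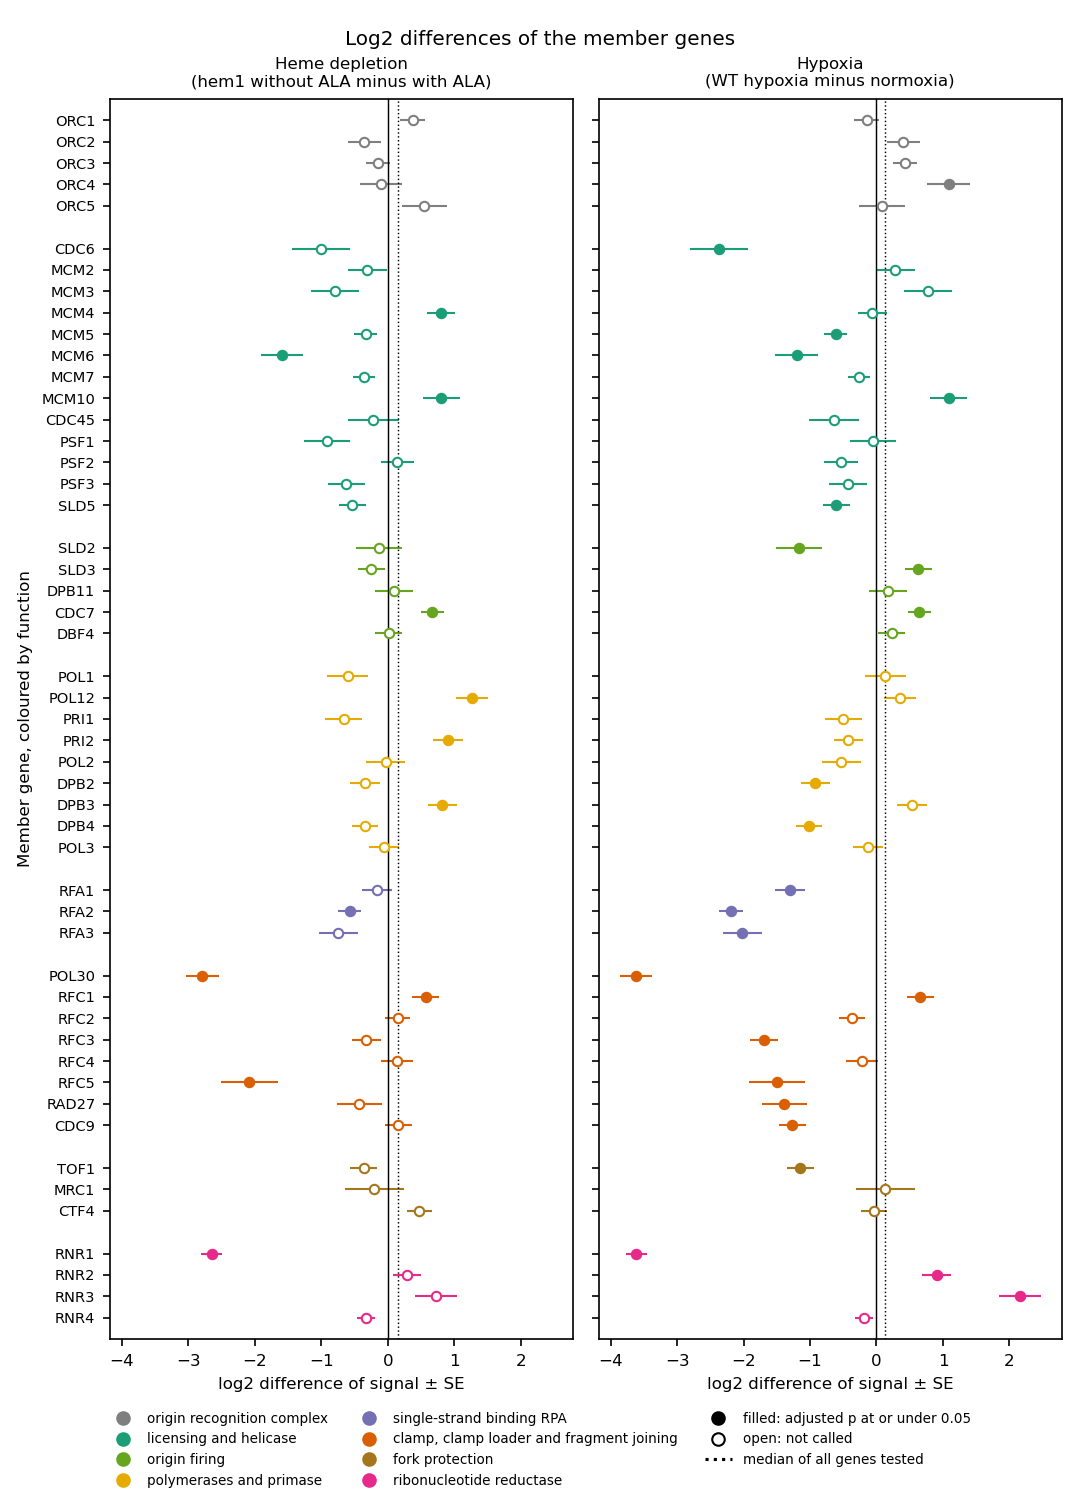
Log2 differences (horizontal axes, ± SE) of the 50 tested members, for heme depletion on the left and hypoxia on the right. Filled points have an adjusted p of at most 0.05, and the dotted line is the median of all genes tested. The RPA genes lie left of 0 in hypoxia, and RNR1 and POL30 lie farthest left in both panels.

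The second comparison set hypoxia against normoxia in the wild type. More members were called than in heme depletion: 17 fell and 7 rose, with 26 not called. The falls included RNR1, POL30, all 3 RPA genes, the fragment-joining genes RAD27 and CDC9, the clamp loader genes RFC3 and RFC5 and the licensing gene CDC6. The rises were led by RNR3. Of all genes tested 31.4% were called higher and 25.2% lower, and 56.6% were called in either direction, compared with 24 of 50 members. The median was -0.25 over the members and 0.12 over all genes.

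With median centring 1 member rose, RNR3, and 31 fell (18.1% and 41.3% of all genes), and with quantile normalization 2 rose, RNR2 and RNR3, and 28 fell (21.6% and 33.4%). The members' median minus that of all genes was -0.37 as reported, a gap that median centring cannot change, and -0.48 with quantile normalization.

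Ribonucleotide reductase genes moved in opposite directions in hypoxia. RNR1 had 104 and 92.9 in hypoxia, against 1166 and 1248 in normoxia. The groups lay an order of magnitude apart, with means of 98.7 ± 8.17 in hypoxia and 1207 ± 58.1 in normoxia (SD, n = 2 each), a 12.3-fold fall (log2 difference -3.61, SE 0.16, adjusted p = 1.08e-06). RNR3 had 166 and 92.7 in hypoxia, against 27.7 and 27.9 in normoxia. Since 1 of the normoxia arrays was below its 30th percentile, the rise is given as at least 4.22-fold (log2 difference 2.16, SE 0.32, adjusted p = 0.000669).

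RNR2, a small subunit gene, had 3892 and 4556 in hypoxia, against 1985 and 2554 in normoxia. It rose 1.87-fold without overlap (log2 difference 0.90, SE 0.21, adjusted p = 0.00714), but missed the threshold after median centring (adjusted p = 0.108) and without hypoxia array 2 (0.0535). RNR4, the partner of RNR2, had 6243 and 5149 in hypoxia and 6598 and 6355 in normoxia. No array in hypoxia reached those in normoxia, but the difference was called only with median centring (adjusted p = 0.00604) and not as reported (log2 difference -0.19, SE 0.14, adjusted p = 0.261).

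The clamp, loader and joining group held 5 falls and 1 rise among 8 genes. POL30 had 53.7 and 63.6 in hypoxia, against 839 and 615 in normoxia. It fell 12.3-fold with wide separation (log2 difference -3.62, SE 0.24, adjusted p = 1.13e-05). RFC3, a small clamp loader subunit gene, had 153 and 224 in hypoxia, against 622 and 575 in normoxia, and fell 3.23-fold (log2 difference -1.69, SE 0.21, adjusted p = 0.000303). RFC5 had 54.5 and 40.9 in hypoxia, against 162 and 109.6 in normoxia, and 1 hypoxia array was below its 30th percentile. It fell at least 2.75-fold (log2 difference -1.50, SE 0.43, adjusted p = 0.0166), a call lost without hypoxia array 2 (adjusted p = 0.103) or normoxia array 1 (0.0821).

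The ligase and flap endonuclease genes, which act in joining Okazaki fragments, fell. CDC9, the ligase gene, had 131 and 180.3 in hypoxia, against 392 and 349 in normoxia, a 2.40-fold fall (log2 difference -1.26, SE 0.21, adjusted p = 0.00115). RAD27, the flap endonuclease gene, had 119 and 148 in hypoxia, against 237 and 509.8 in normoxia. Its normoxia arrays differed from each other more than the lower one differed from hypoxia, and the 2.62-fold fall (log2 difference -1.39, SE 0.34, adjusted p = 0.0085) was lost without hypoxia array 1 (adjusted p = 0.0622).

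RFC1 was again the only loader gene called higher. It read 339.6 and 401 in hypoxia and 202 and 269.7 in normoxia, and rose 1.58-fold (log2 difference 0.66, SE 0.20, adjusted p = 0.0232). That call was lost with both other scalings (adjusted p = 0.449 and 0.204) and without hypoxia array 2 (0.128) or normoxia array 1 (0.136). RFC2 (-0.37) and RFC4 (-0.22) were not called as reported and were called lower with both other scalings.

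All 3 RPA subunit genes fell in hypoxia, and did so in each alternative setting. RFA1 had 189 and 235 in hypoxia, against 429 and 629.6 in normoxia, a 2.47-fold fall (log2 difference -1.30, SE 0.23, adjusted p = 0.00153). RFA2 had 250.5 and 301 in hypoxia, against 1225 and 1283 in normoxia, a 4.57-fold fall (log2 difference -2.19, SE 0.18, adjusted p = 2.96e-05). RFA3 had 382 and 426 in hypoxia, against 1590.4 and 1676 in normoxia, a 4.05-fold fall (log2 difference -2.02, SE 0.30, adjusted p = 0.000658). In RFA2 and RFA3 the gap between the groups was far wider than that within either group, while the normoxia arrays of RFA1 differed from each other as much as the lower one differed from hypoxia.

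Licensing and helicase genes gave 4 falls and 1 rise among 13. CDC6 had 12.0 and 17.9 in hypoxia, against 73.9 and 77.3 in normoxia. It was dim in hypoxia and fell at least 1.80-fold (log2 difference -2.37, SE 0.44, adjusted p = 0.00214), and missed the threshold only when low signals were floored (adjusted p = 0.0557). MCM6 had 30.6 and 20.6 in hypoxia, against 49.1 and 68.2 in normoxia, and fell at least 1.38-fold (log2 difference -1.20, SE 0.32, adjusted p = 0.0122), with the call lost with such a floor (0.0608) and without hypoxia array 2 (adjusted p = 0.0839) or normoxia array 2 (0.0681).

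Smaller falls were called for MCM5, a helicase subunit gene, and SLD5, a GINS subunit gene. MCM5 fell 1.53-fold (log2 difference -0.61, SE 0.17, adjusted p = 0.0151) and SLD5 1.52-fold (log2 difference -0.60, SE 0.20, adjusted p = 0.0322). Each call was lost without normoxia array 2 (adjusted p = 0.0579 and 0.15), and in addition without hypoxia array 2 for MCM5 (0.0716) and hypoxia array 1 for SLD5 (0.189). MCM10 had 81.0 and 58.2 in hypoxia, against 31.3 and 33.5 in normoxia, and rose 2.12-fold (log2 difference 1.08, SE 0.28, adjusted p = 0.0103). The MCM10 call was lost with both other scalings (adjusted p = 0.103 and 0.124) and without hypoxia array 1 (0.0827). MCM2, MCM3, MCM4, MCM7, CDC45, PSF1, PSF2 and PSF3 ranged from -0.64 to 0.78 and were not called as reported. With both other scalings MCM7, CDC45, PSF2 and PSF3 were called lower, and with median centring MCM4 as well.

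The origin firing genes divided, with CDC7 and SLD3 higher and SLD2 lower. CDC7 had 173 and 196 in hypoxia, against 121 and 115 in normoxia, and rose 1.56-fold (log2 difference 0.64, SE 0.17, adjusted p = 0.013). SLD3, which brings Cdc45 to the helicase, had 188 and 151 in hypoxia, against 107 and 111 in normoxia, and rose 1.54-fold (log2 difference 0.63, SE 0.20, adjusted p = 0.0292). SLD2, whose product like Sld3 binds Dpb11, was dim in hypoxia, at 17.6 and 31.8 against 46.5 and 60.6 in normoxia, and fell at least 1.27-fold (log2 difference -1.17, SE 0.34, adjusted p = 0.019). None of the 3 overlapped, yet all 3 calls depended on single arrays, and those of CDC7 and SLD3 were also lost with median centring (adjusted p = 0.457 and 0.596). The SLD2 call was lost too when low signals were floored (0.115).

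The arrays in question were hypoxia array 2 (0.0774) or normoxia array 2 (0.0527) for CDC7. For SLD3 they were hypoxia array 1 (0.169) or either normoxia array (0.0898 and 0.0699). For SLD2 they were hypoxia array 1 (0.122) or normoxia array 2 (0.0884). DPB11 (0.17) and DBF4 (0.23) were not called.

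Of the 5 origin recognition complex genes tested, ORC4 was the 1 called as reported. It had 166 and 168 in hypoxia, against 111 and 55.5 in normoxia, and rose 2.12-fold (log2 difference 1.08, SE 0.32, adjusted p = 0.0197). The hypoxia arrays were nearly equal, whereas the normoxia arrays differed about as much from each other as the brighter one did from hypoxia. The call was lost without hypoxia array 1 (adjusted p = 0.0813), hypoxia array 2 (0.0853) or normoxia array 2 (0.0983) and with both other scalings (0.173 and 0.169). ORC1, ORC2, ORC3 and ORC5 ranged from -0.15 to 0.42. With both other scalings, where ORC4 was not called, ORC1 was called lower (adjusted p = 0.0135 and 0.0189).

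Among polymerase genes, 2 subunits of the leading-strand polymerase epsilon fell. DPB4 had 289.7 and 288 in hypoxia, against 557 and 615 in normoxia, a 2.02-fold fall (log2 difference -1.02, SE 0.20, adjusted p = 0.00263). DPB2 had 46.8 and 49.6 in hypoxia, against 98.9 and 83.7 in normoxia, a 1.89-fold fall (log2 difference -0.92, SE 0.22, adjusted p = 0.0078), which just missed the threshold without the high 18S arrays (adjusted p = 0.051). The remaining small subunit gene, DPB3, was not called (0.53), nor was the catalytic subunit gene POL2 (-0.53 for its brightest probe set and -0.22 for the other of its 2 tested sets).

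The genes of polymerase alpha and primase, POL1, POL12, PRI1 and PRI2, lay between -0.50 and 0.36, and POL3 at -0.13. With both other scalings PRI1, PRI2, POL2 and POL3 were called lower, at adjusted p = 0.0151, 0.00741, 0.0133 and 0.0375 with median centring. TOF1, whose product keeps the helicase and polymerases together, was the 1 fork protection gene called. It had 76.7 and 92.3 in hypoxia, against 172 and 202 in normoxia, and fell 2.22-fold (log2 difference -1.15, SE 0.20, adjusted p = 0.00165). CTF4, which tethers polymerase alpha to the helicase, had 218 and 219.8 in hypoxia and 216 and 234 in normoxia, with the hypoxia values inside the normoxia range (log2 difference -0.04, SE 0.19, adjusted p = 0.879), and was called lower with median centring (0.0444).

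**Figure D4:**
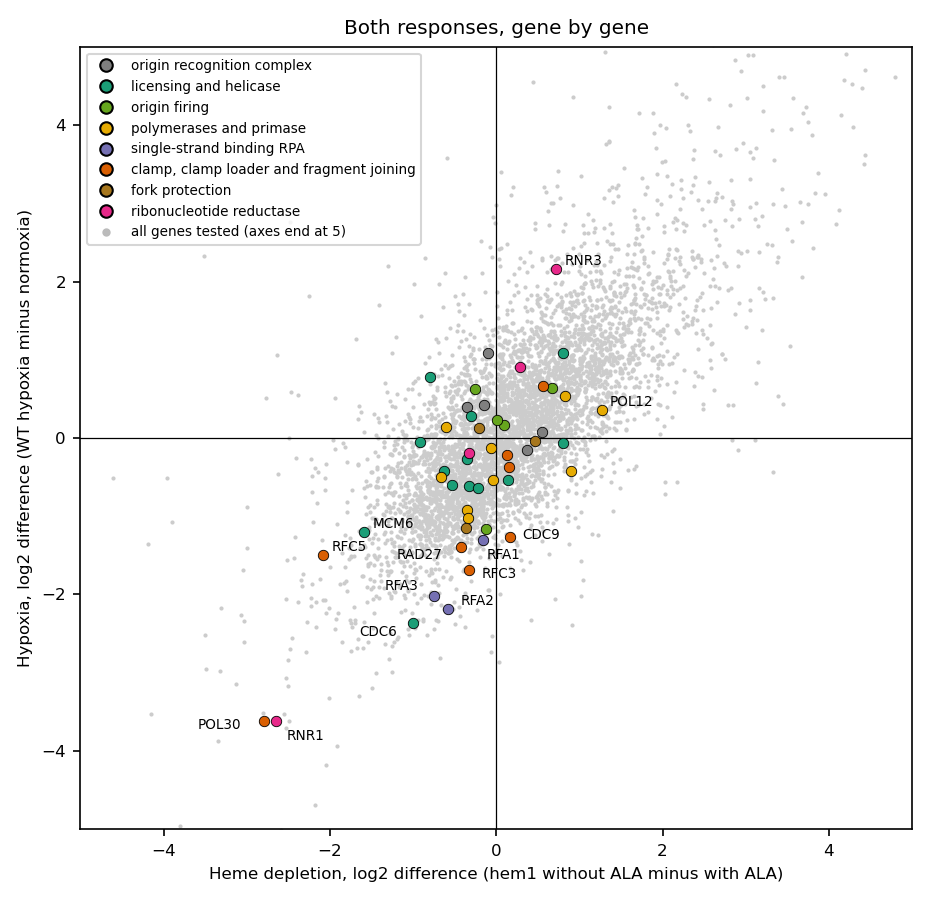
Each point is a gene: its log2 difference in heme depletion (horizontal) and in hypoxia (vertical). Grey points are all 5283 genes tested and coloured points the 50 members by function. RNR1 and POL30 sit at the lower left, apart from the other members, and the RPA genes lie below 0 on the vertical axis and nearer 0 on the horizontal one.

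The treatments used different strains and their differences share no arrays, so their calls can be set side by side. The calls are not independent, because limma estimated the variance of each gene from the arrays of all groups together. Without either hypoxia array, the heme depletion difference of RFC1 stayed at 0.57, but its call was lost. Lower in both were 5 members (RNR1, POL30, RFC5, MCM6 and RFA2), and higher in both were 3 (MCM10, CDC7 and RFC1). No member was called in opposite directions. Another 12 fell in hypoxia without a call in heme depletion, 4 rose in hypoxia alone by call (ORC4, SLD3, RNR2 and RNR3), another 4 rose in heme depletion alone by call (MCM4, POL12, PRI2 and DPB3) and 22 were called in neither. Of all genes, 50.2% were called in heme depletion and 56.6% in hypoxia, but calls shared by both were counted for the members only. Whether this overlap, or the lack of opposite calls, is particular to the members was therefore not tested. Across the 50 members the log2 differences of the treatments correlated with Pearson r = 0.71 and Spearman rho = 0.57, and across all 5283 genes with 0.76 and 0.72. These are descriptions across genes, which are not independent replicates and share each array's scaling.

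Whether the responses differed was tested gene by gene as the heme depletion difference minus the hypoxia difference. This contrast also carries the difference in strain and in culture time (16 h against 12 h), which cannot be told apart from the treatments, and it shares its arrays with both. Of the 50 members 6 were higher in it, against 9.81% of all genes, and limma called 0 lower, against 6.45% (16.3% in either direction). At an unadjusted p under 0.05, 4 were lower and 12 higher. The members' median was 0.29 and that of all genes 0.09. RFA2 had the widest such difference and the only one held in all 16 alternative settings, at 1.62 (SE 0.25, adjusted p = 0.00553): it fell less without ALA than in hypoxia.

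CDC9 (1.43, SE 0.29, adjusted p = 0.0143), RFC3 (1.37, SE 0.30, adjusted p = 0.0191) and RFA1 (1.14, SE 0.32, adjusted p = 0.0426) fell in hypoxia and were not called in heme depletion. RNR1 fell in both and more in hypoxia (0.96, SE 0.23, adjusted p = 0.0238). PRI2 rose without ALA and was -0.42 in hypoxia (1.33, SE 0.32, adjusted p = 0.0242). Its means were 313 without ALA and 291 in hypoxia, against 169 with ALA and 386 in normoxia. The treated groups of PRI2 thus lay closer together than its controls. Each of these 5 calls was lost when some single array was left out: hypoxia array 1 for CDC9 (adjusted p = 0.0541), that array (0.0585) or array 2 with ALA (0.0679) for RFC3, any of 7 for RFA1 (up to 0.143), any of 6 for RNR1 (up to 0.0754) and any of 5 for PRI2 (up to 0.0896). POL30, with a similar pair of falls, was not called in this test (0.83, SE 0.35, adjusted p = 0.135).

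The control cultures, hem1 with ALA and wild type in normoxia, were also set against each other, since they differ in strain, time and the ALA named in the labels. The arrays are those that serve as controls above, so a gap between them also enters the difference of responses. Here 5 members were higher in hem1 with ALA and 4 lower, against 12.6% and 9.14% of all genes (21.7% in either direction), and the medians were 0.04 for members and 0.06 for all genes. RNR3 stood out, with 157 and 129 in hem1 with ALA, against 27.7 and 27.9 in normoxia. It was at least 4.85-fold higher (log2 difference 2.36, SE 0.32, adjusted p = 0.00182), the 1 control call held in all 16 alternative settings.

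RNR1 had 1865 and 1785 in hem1 with ALA, against 1166 and 1248 in normoxia, and was 1.51-fold higher without overlap (log2 difference 0.60, SE 0.16, adjusted p = 0.0324). Among helicase and origin genes, MCM3 had 267 and 284 in hem1 with ALA, against 149 and 65.3 in normoxia, and was 2.80-fold higher (log2 difference 1.48, SE 0.36, adjusted p = 0.022). ORC2 had 142 and 129 in hem1 with ALA, against 57.1 and 64.8 in normoxia, and was 2.23-fold higher (log2 difference 1.16, SE 0.25, adjusted p = 0.0134). ORC3 was 1.55-fold higher (log2 difference 0.64, SE 0.18, adjusted p = 0.0389). The normoxia arrays of MCM3 were far apart, those of ORC2 and ORC3 close together.

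Lower in hem1 with ALA were PRI2, PSF2, RFA2 and RFC3. PRI2 had 196 and 142 in hem1 with ALA, against 360.1 and 412 in normoxia, and was 2.31-fold lower (log2 difference -1.21, SE 0.22, adjusted p = 0.00769). PSF2, a GINS subunit gene, had 146 and 97.6 in hem1 with ALA, against 204 and 236 in normoxia, 1.84-fold lower (log2 difference -0.88, SE 0.25, adjusted p = 0.0418). RFA2 and RFC3 were both 1.65-fold lower (log2 difference -0.73, SE 0.18, adjusted p = 0.0224 for RFA2, and log2 difference -0.72, SE 0.21, adjusted p = 0.0457 for RFC3). All calls of this comparison other than RNR3 were lost when at least 1 single array was left out, with adjusted p up to 0.0553 for PRI2, 0.0728 for ORC2, 0.108 for MCM3, 0.130 for RNR1, 0.137 for RFA2, 0.166 for ORC3, 0.222 for RFC3 and 0.222 for PSF2.

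Genes around the members were read from lists that were likewise drawn up with earlier results of these data known. Of 20 genes of nucleotide supply and its control, 5 rose and 4 fell in heme depletion, and 6 rose and 8 fell in hypoxia. For this and the lists that follow, the shares of all genes called were 31.2% higher and 19.0% lower in heme depletion, and 31.4% and 25.2% in hypoxia. With median centring the counts of this list were 4 and 9 in heme depletion and 3 and 12 in hypoxia. The shares of all genes with that scaling were 19.8% higher and 33.9% lower in heme depletion, and 18.1% and 41.3% in hypoxia. CDC21, which encodes thymidylate synthase, had 86.5 and 79.9 without ALA, against 173 and 162 with ALA, and 42.5 and 45.7 in hypoxia, against 211 and 236 in normoxia. It fell 2.02-fold without ALA (adjusted p = 0.00257) and 5.07-fold in hypoxia (adjusted p = 2.51e-05). GUK1, the guanylate kinase gene, fell 1.86-fold without ALA (adjusted p = 0.00155) and 2.58-fold in hypoxia (adjusted p = 0.000128). DCD1, a dCMP deaminase gene, fell 1.55-fold without ALA (adjusted p = 0.0103), a call lost without array 1 of either hem1 group (0.0567 without ALA and 0.0646 with ALA), and was not called in hypoxia (-0.15).

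The inhibitors of ribonucleotide reductase behaved unlike each other. HUG1, a small inhibitor gene known in yeast for its induction by DNA damage, had 2379 and 2618 without ALA, against 1098 and 1342 with ALA, and 3916 and 4402 in hypoxia, against 139 and 96.1 in normoxia. It rose 2.06-fold without ALA (adjusted p = 0.00376) and 36.0-fold in hypoxia (adjusted p = 6.3e-07), and between the control cultures hem1 with ALA exceeded normoxia 10.5-fold (adjusted p = 6.79e-05). Like RNR3, HUG1 was lowest in normoxia and already high in hem1 with ALA. SML1, which encodes an inhibitor of Rnr1, had 3009.9 and 3319.6 in hypoxia, against 7449 and 6763 in normoxia, and fell 2.25-fold (adjusted p = 0.000173). It was not called in heme depletion (log2 difference -0.16, SE 0.13, adjusted p = 0.357). DIF1, whose product directs the small subunits to the nucleus, rose 1.89-fold without ALA (adjusted p = 0.00146) and 1.88-fold in hypoxia (adjusted p = 0.00115).

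Among regulators, MEC1, the checkpoint kinase gene, had 375 and 363 without ALA, against 77.1 and 114 with ALA, and 251 and 317 in hypoxia, against 95.3 and 79.9 in normoxia. It rose 3.94-fold without ALA (adjusted p = 0.000305) and 3.23-fold in hypoxia (adjusted p = 0.00049). RFX1, the repressor gene that acts on RNR2, RNR3, RNR4 and HUG1, rose 2.57-fold without ALA (adjusted p = 0.00134) and 1.98-fold in hypoxia (adjusted p = 0.00505), the hypoxia call being lost after median centring (adjusted p = 0.055), quantile normalization (0.0725) and without the high 18S arrays (0.0602).

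Of 21 accessory replication factors, 3 rose and 2 fell in heme depletion, and 3 rose and 9 fell in hypoxia. With median centring limma called 0 higher in either (19.8% and 18.1% of all genes), and 7 and 14 lower (33.9% and 41.3% of all genes). The rises were TAH11, the Cdt1 licensing factor, in both treatments (1.04 and 1.05), DCC1, of a variant clamp loader, and SLD7, a partner of Sld3, in heme depletion (0.64 and 0.85), and the nuclease-helicase DNA2 and the topoisomerase TOP1 in hypoxia (1.16 and 0.94). Each of these calls was lost with both other scalings and without single arrays, at adjusted p up to 0.29 with median centring. The falls with the smallest adjusted p in hypoxia were RNH203, a ribonuclease H2 subunit gene, 3.96-fold, and the histone chaperone genes CAC2, 3.54-fold, and ASF1, 2.95-fold (adjusted p = 7.92e-05, 0.000168 and 0.000583). In heme depletion RNH203 fell 1.61-fold and the chaperone gene SPT16 1.72-fold (adjusted p = 0.0182 and 0.0248), both lost without the high 18S arrays (0.0934 and 0.149) and without array 1 with ALA (0.121 and 0.118).

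**Figure D5:**
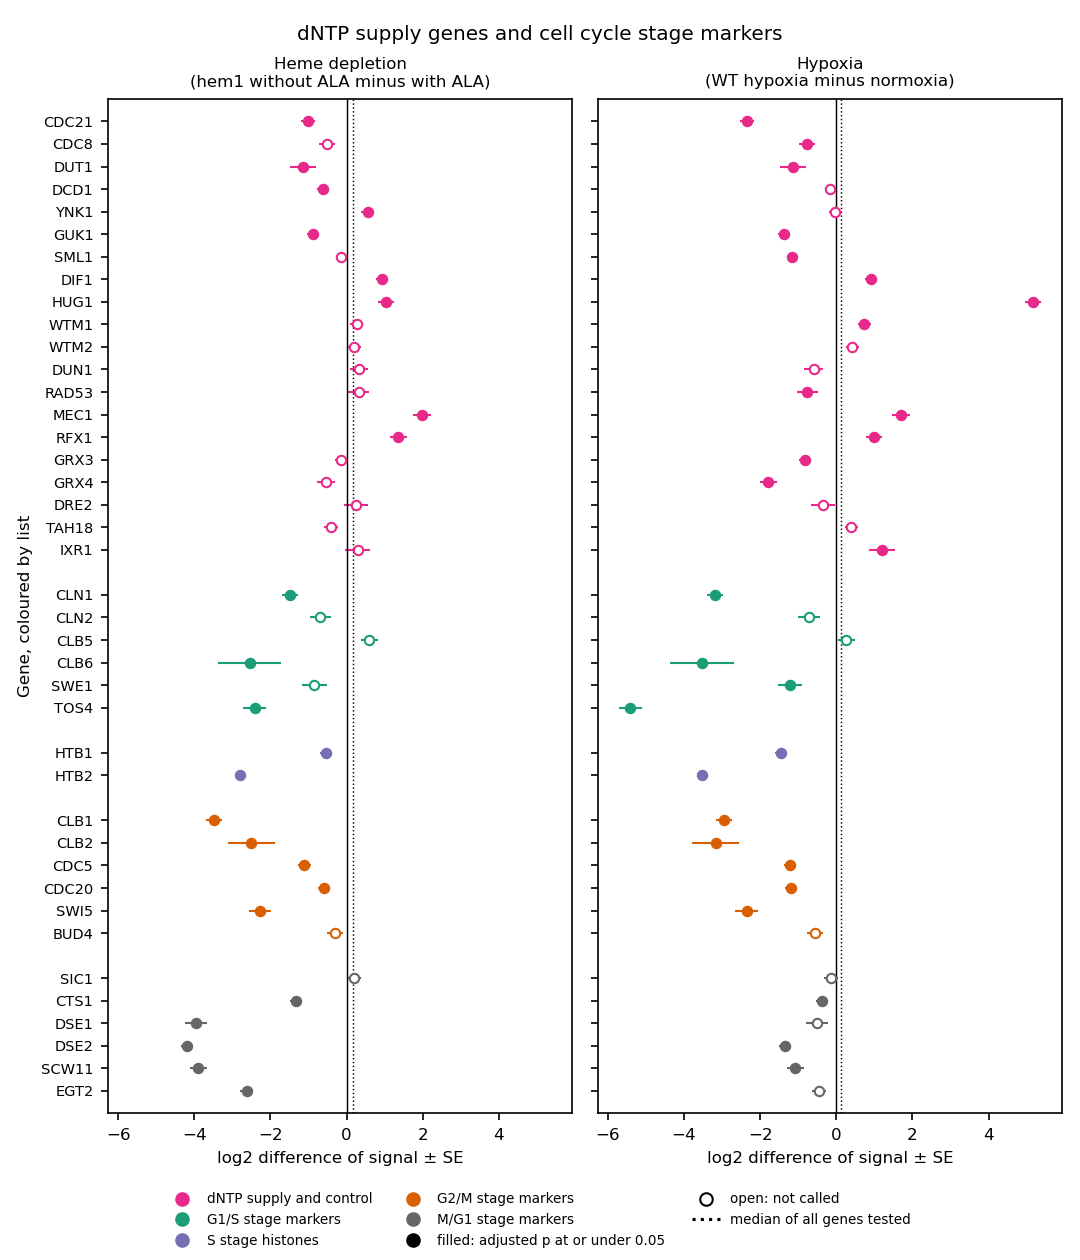
Log2 differences (horizontal axes, ± SE) of nucleotide supply genes and of genes known to peak at set stages of the cell cycle, for heme depletion on the left and hypoxia on the right. Filled points have an adjusted p of at most 0.05 and the dotted line is the median of all genes tested. HUG1 lies far right in hypoxia, and the G2/M genes lie left of 0 in both panels.

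Genes that mark stages of the cell cycle moved beside the members. Of 6 G1/S markers, 3 were called lower in heme depletion and 4 in hypoxia, and 0 higher by limma, with 1 and 0 higher at an unadjusted p under 0.05. CLN1, a G1 cyclin gene, fell 2.81-fold without ALA (adjusted p = 0.00066) and at least 8.22-fold in hypoxia (adjusted p = 9.38e-06). TOS4, a target of the same transition, fell at least 1.63-fold and at least 5.17-fold (adjusted p = 0.000379 and 3.85e-06), while the cyclin gene CLB6, counted among the lower calls, was dim in both hem1 groups and in hypoxia and is given no fold. With low signals floored the CLB6 difference turned to higher (0.39, adjusted p = 0.0361 in heme depletion, and 0.35, adjusted p = 0.0503 in hypoxia), and without CLB6 the lower calls number 2 of 5 and 3 of 5. Summed over the 6, signals were 811 to 897 without ALA, against 960 to 1032 with ALA, and 705 to 782 in hypoxia, against 1234 to 1496 in normoxia.

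Of the S phase histone genes only HTB1 and HTB2, for histone H2B, have a probe set of their own. Other probe sets each read a pair of near-identical H2A, H3 or H4 genes. Their log2 differences were -1.24 to -0.13 without ALA and -1.63 to -0.43 in hypoxia. In limma an H3 set (adjusted p = 0.479) and an H2A set (0.0866) were not called without ALA. That H2A set was not called in hypoxia either (0.0542), and the rest were called lower. HTB2 had 522 and 499 without ALA, against 3613 and 3513 with ALA, and 371 and 344 in hypoxia, against 4234 and 3952 in normoxia. It fell 6.98-fold without ALA (adjusted p = 3.45e-06) and 11.5-fold in hypoxia (adjusted p = 5.72e-07), and HTB1 fell 1.45-fold and 2.73-fold (adjusted p = 0.0225 and 0.000146), the call without ALA being lost with quantile normalization (0.127) and without array 2 of either hem1 group (0.135 without ALA and 0.112 with ALA).

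Later stages were lower too. Of 6 G2/M markers tested, 5 fell in each treatment, with summed signals of 706 to 750 without ALA, against 1573 to 1635 with ALA, and 604 to 697 in hypoxia, against 1711 to 1738 in normoxia. CLB1, a mitotic cyclin gene, fell at least 5.85-fold without ALA and at least 5.38-fold in hypoxia (adjusted p = 1e-05 and 1.7e-05). Of 6 M/G1 markers, 5 fell in heme depletion and 3 in hypoxia, among them DSE2, a daughter cell wall gene, 18.2-fold and 2.56-fold (adjusted p = 1.46e-06 and 0.000189). The hypoxia call of CTS1, a chitinase gene, was small (log2 difference -0.38). It was lost with no filter (adjusted p = 0.0645), no intensity trend (0.0904) and quantile normalization (0.454), and without most single arrays. The part of these shifts in the members' differences was not tested.

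The transcription factor genes of the G1 to S transition gave no common direction. NRM1, the corepressor that ends this wave and is itself one of its targets, was dim in both treated groups and fell at least 3.36-fold without ALA and at least 3.40-fold in hypoxia (adjusted p = 0.000139 and 3.34e-05). BCK2, an activator of G1 transcription, rose 2.42-fold and 2.55-fold (adjusted p = 0.00215 and 0.00124). In hypoxia MBP1, the DNA-binding subunit of the factor MBF, rose (0.86, adjusted p = 0.0166), a call lost with both other scalings (0.262 and 0.311). The G1 regulators STB1 and WHI5 fell at least 1.89-fold and at least 1.60-fold, and both calls were lost without hypoxia array 1 (0.0705 and 0.0998).

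Mating type markers were read as a check on the cells in culture. All 4 MATalpha genes fell in both treatments, with summed signals of 9955 to 11325 without ALA, against 21274 to 22930 with ALA, and 6770.3 to 7165 in hypoxia, against 24807 to 25970 in normoxia. MATa genes summed to 614 to 686 without ALA, against 195 to 236 with ALA, and 227 to 283 in hypoxia, against 101 to 115 in normoxia. Of these genes 2 of the 3 tested were called higher in heme depletion and 3 in hypoxia (1 and 1 with median centring), while the receptor gene STE2 was dim in all 4 groups. Their part in the results was not tested.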

How the data were processed

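Total RNA of 8 yeast samples was extracted with Trizol and measured on 1 Affymetrix YG_S98 array each, per the labels' protocols. The authors deposited MAS5 signal values, and MAS5 is named in the submitters' processing notes. The MAS5 version and the array scanning settings are not given in the sources used here, and detection calls were not used here. Array signals carry no read depth, so the number of arrays, 2 a group, limits the precision. Of 9335 probe sets, 60 are controls, 6504 are annotated to 1 gene, 328 to several and 2443 to none. All 6504 single-gene annotations matched RefSeq by gene ID.

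From the deposited signal, log2 values were fitted in limma 3.58.1 (R 4.3.3) with 1 mean per group over all 8 arrays, an intensity trend in the variance and 4 residual degrees of freedom. A probe set was tested if it lay above its array's 30th percentile on at least 2 arrays, and Benjamini-Hochberg adjustment ran over all 7081 probe sets tested. Each gene took its own probe set with the highest mean signal. The fit was checked on simulated data with independent noise and known changes in a small part of the probe sets. The simulated arrays held no array-wide shift, so this check does not bear on the choice of scaling. Alternatives covered scaling (median centring, quantile normalization), the filter, a floor for low signals, the variance trend, averaging of probe sets, each array left out, and the 2 arrays with an 18S control signal over 1000 left out together.

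The member genes, the other gene lists and the tests were chosen with earlier results of these data known. Values on every array were given for the ribonucleotide reductase genes, for up to 8 called members each way in heme depletion and in hypoxia and up to 4 in the other comparisons, by largest difference, and for the brightest member of a function with none. Of each other list, up to 3 called genes each way were named by smallest adjusted p. Members beyond that rule, and MCM5, SLD5, SLD2, DPB2, DPB4, TOF1, CDC9, RFA1 and ORC4 where it did not reach them, were added to account for every member. No sequence is printed, because none was used here.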

Additional observations from a re-analysis of the deposited data

Results flagged for a closer look

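Across all genes tested, 859 of 5283 had an adjusted p of at most 0.05 in limma's test of the heme depletion difference minus the hypoxia difference. In the gene lists used here 28 did, of which 23 are given below with 1 of the other 5, some of them named only here. Positive values mean that the hem1 strain without ALA, set against hem1 with ALA, lay higher than hypoxia set against normoxia. Strain and culture time differ between the treatments and cannot be told apart from them.

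Among the members the differences were 1.62 for RFA2, 1.43 for CDC9, 1.37 for RFC3, 1.33 for PRI2, 1.14 for RFA1 and 0.96 for RNR1, all on the log2 scale. Among accessory and nucleotide supply genes they were 1.86 for the histone chaperone gene ASF1, 1.52 for CAC2, 1.33 for thymidylate synthase CDC21, 1.30 for RNH203 and 1.01 for the inhibitor gene SML1. The calls of CAC2, CDC21 and RNH203 were each lost without hypoxia array 1 (adjusted p = 0.0512, 0.0505 and 0.0646) and without the high 18S arrays. HUG1 had a difference of -4.13, having risen far more in hypoxia.

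Of the G1/S genes, TOS4 had a fitted difference of 3.00 and CLN1 of 1.70. TOS4 was dim in both treated groups and CLN1 in hypoxia, so these sizes rest on signals at or below the 30th percentile, and with low signals floored they were 1.66 and 1.55. The CLN1 call was lost without the high 18S arrays (adjusted p = 0.0664). The histone genes gave 0.91 for HTB1 and 0.71 for HTB2, but HTB1 lost its call when any 1 of 7 of the 8 arrays was left out and HTB2 when any 1 of the 8 was (adjusted p up to 0.124 and 0.155 over all alternatives).

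The 5 M/G1 genes called were negative, at -2.83 for DSE2, -2.82 for SCW11, -2.17 for EGT2 and -0.96 for the chitinase gene CTS1. DSE1, named after its value was seen, had -3.45, but was dim without ALA and gave -1.41 with low signals floored. The CTS1 call was lost without the high 18S arrays (adjusted p = 0.103).

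The MATalpha genes gave 2.54 for MF(ALPHA)2, 1.16 for STE3 and 0.59 for MF(ALPHA)1. STE3 lost its call when any 1 of 7 of the 8 arrays was left out (adjusted p up to 0.09). MF(ALPHA)1 lost it with any 1 of the 8 left out and in all under 14 of 16 alternatives (adjusted p up to 0.194).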

How the results depend on the processing

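In the treatment comparisons scaling moved the counts most, and in the other comparisons leaving out 1 array did. Where only 1 direction is given below, the other is not printed, so the balance cannot be read from it. With median centring 25 members were called in heme depletion (1 higher, 24 lower, median -0.61), 1 higher and 31 lower in hypoxia (median -0.73), and 3 higher and 7 lower between control cultures (median -0.20). With quantile normalization 23 were called in heme depletion (1 higher, 22 lower, median -0.53), 2 higher and 28 lower in hypoxia (median -0.67), and 3 higher and 3 lower between control cultures (median -0.18). The median over all genes moved too, to -0.25 and -0.37 with median centring and -0.09 and -0.19 with quantile normalization in heme depletion and hypoxia. Between control cultures 665 of 5283 genes were higher and 483 lower as reported. These became 388 and 938 with median centring and 390 and 545 with quantile normalization. Between control cultures 2 members were lower with no filter and 2 with no intensity trend, and the median was -0.12 with a stricter filter. Without the high 18S arrays 4 were higher in heme depletion and 4 in hypoxia, 5 were called between control cultures (3 higher, 2 lower), and 3 in the difference of responses, all 3 higher. Leaving out 1 array at a time gave 2 to 7 higher, 5 to 8 lower and a median of -0.22 to -0.15 in heme depletion, and 3 to 7 higher with a median of -0.38 to -0.19 in hypoxia. It gave 1 to 8 called, 1 to 5 higher, 0 to 3 lower and a median of -0.13 to 0.14 between control cultures. In the difference of responses it gave 1 to 9 called, 1 to 7 higher, 0 to 2 lower and a median of 0.065 to 0.36. Calls held in all 16 alternatives were 4 of 12 in heme depletion (POL12, POL30, RFC5 and RNR1), 10 of 24 in hypoxia, 1 of 9 between control cultures and 1 of 6 in the difference. No called member reversed under these alternatives. A group left with 1 array is assumed to vary like the others. No paired analysis was possible because the labels give no replicate numbers. Calls over all genes also moved when arrays were left out, so the shifts in member counts are not read as particular to the members. The causes of these shifts were not tested.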
